A study of Mus musculus with 24 samples.

Results

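The 28 genes described here carry out the synthesis, sensing, transport, storage and efflux of cholesterol. They were taken by gene name from tables of 78298 genes, and each name was found once in the granulosa cell table and once in the oocyte table. They comprised 18 genes of the synthesis route from acetyl-CoA to cholesterol and 10 genes of sensing, uptake, storage and efflux. RNA sequencing had been done on wild-type mouse ovarian follicles held in alginate gel and grown to day 3 in serum-containing medium with FSH at 50 mIU/ml. The oocyte groups were blebbistatin (20 µM, an inhibitor of the motor protein myosin II), dextran (a polymer added to an osmotic pressure of 10 kPa) and control, and the granulosa cell groups were the same 3 treatments. Each of the 6 groups had 4 libraries, so 24 libraries were compared. Follicles past 180 µm had been separated mechanically into oocyte and granulosa cells, and an oocyte library held 1 to 2 oocytes whereas a granulosa library pooled many cells. The labels call the replicates biological but name no animal or culture for them, so a p-value here reflects variation between libraries, some of which may be technical. The labels also do not say whether control medium held the solvent of blebbistatin.

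Cholesterol is built from acetyl-CoA through mevalonate, farnesyl diphosphate, squalene and lanosterol. The transcription factor SREBP2 and its relative SREBP1 switch these genes on when sterols are scarce, after the escort protein SCAP has moved them out of the endoplasmic reticulum, where INSIG proteins otherwise hold them. Cells also take cholesterol up from lipoproteins, store it as ester and export it through ABC transporters. In the mouse ovary the granulosa cells use cholesterol for steroids, and mouse oocytes are known to make little cholesterol themselves and to be supplied by the cumulus cells around them.

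SREBPs act with the factor NF-Y, which binds the CCAAT box, so the promoters were searched on both strands for an SREBP site, spelled TCACNCCAC, and for CCAAT. RefSeq promoter windows (GRCm38.p6, 250 bases before to 50 after a gene start) were matched for 22 of the 28 genes, and none was matched for Fdft1, Sqle, Fdps, Stard4, Scarb1 and Abcg1. CCAAT occurred in 19 of the 22 genes (86.4%), against 41.1% of all 27025 genes with a window, a gene being counted when any of its windows held the motif. The SREBP site occurred in 1 of the 22, Hmgcs1 (4.55%), against 1.44% of all genes. The 250 bases before the start are shown for 4 genes that differed between the cell types in different ways, with CCAAT, its reverse complement and the SREBP site in capitals. Hmgcs1 had near equal levels in both cell types, Mvk and Cyp51 were far lower in oocytes, and Insig1 was higher in oocytes.
Hmgcs1 (chr13:119690101-119690350, plus strand): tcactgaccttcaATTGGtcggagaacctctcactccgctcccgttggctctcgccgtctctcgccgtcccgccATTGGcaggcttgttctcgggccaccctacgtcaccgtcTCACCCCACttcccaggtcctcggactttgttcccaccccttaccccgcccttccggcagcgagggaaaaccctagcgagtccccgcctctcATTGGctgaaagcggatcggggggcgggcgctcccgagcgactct
Mvk (chr5:114444019-114444268, plus strand): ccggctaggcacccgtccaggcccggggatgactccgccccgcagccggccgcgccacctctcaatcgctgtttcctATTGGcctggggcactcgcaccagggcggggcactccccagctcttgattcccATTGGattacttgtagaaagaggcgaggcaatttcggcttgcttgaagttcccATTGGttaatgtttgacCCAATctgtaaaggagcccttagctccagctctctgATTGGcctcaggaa
Cyp51 (chr5:4104698-4104947, minus strand): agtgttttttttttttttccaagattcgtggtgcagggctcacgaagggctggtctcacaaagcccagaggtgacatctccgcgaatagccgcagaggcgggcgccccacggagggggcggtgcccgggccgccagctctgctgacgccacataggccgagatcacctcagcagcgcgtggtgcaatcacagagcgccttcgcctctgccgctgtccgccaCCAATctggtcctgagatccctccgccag
Insig1 (chr5:28071162-28071411, plus strand): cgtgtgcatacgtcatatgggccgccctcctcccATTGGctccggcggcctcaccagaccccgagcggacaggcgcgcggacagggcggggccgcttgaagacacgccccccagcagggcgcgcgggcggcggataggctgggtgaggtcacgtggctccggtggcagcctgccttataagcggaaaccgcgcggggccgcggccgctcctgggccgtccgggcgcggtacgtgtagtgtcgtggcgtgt
Hmgcs1 and Mvk each held several CCAAT boxes, and Cyp51 and Insig1 held 1 each. A match describes these letters and is not evidence of binding, and a window with no match says nothing about the factor.

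Total counts ran from 14244103 to 18399551 per oocyte library and from 16432298 to 22431013 per granulosa library. All 14 oocyte markers were detected at 1 CPM or more in every oocyte group. Zona pellucida gene Zp3 stood at 1585 to 3106 CPM in oocyte libraries and at 0 to 0.212 CPM in granulosa libraries. Granulosa transcripts were measured in each oocyte library as the median, over 14 granulosa markers, of the level relative to the granulosa group of the same treatment. This median was 16.8% in control oocyte library 2, 4.25% in control oocyte library 1 and 2.497% in blebbistatin oocyte library 1. It lay between 0.0289% and 0.968% in the other 9 oocyte libraries. Among the granulosa libraries, Lyz2, a macrophage gene, reached 339.6 and 586 CPM in blebbistatin libraries 1 and 2 and was at 0 to 6.71 CPM in the other 10. Blebbistatin granulosa library 1 also had counts for the fewest genes, 14538 against 18605 to 24297 in the other 11.

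Most of the route was lower in oocytes than in granulosa cells, with a few steps higher and a few near equal. In control medium 19 of the 28 genes were lower in oocytes, 5 were higher and 4 did not pass (edgeR quasi-likelihood test, Benjamini-Hochberg adjusted p under 0.05). Over all 20601 genes tested, 32.9% were lower and 44.4% higher. With blebbistatin 20 genes were lower and 5 higher, against 34.6% and 44.3% of all genes tested. With dextran 20 were lower and 5 higher, against 35.4% and 44.0% of all genes tested. The same 5 genes were higher in all 3 conditions, Fdft1, Srebf1, Scap, Insig1 and Abcg1, against 40.3% of all genes tested, and 18 genes were lower in all 3, against 29.4%. No gene was called in opposite directions. The median log2 change of the 28 genes was -1.44 with blebbistatin, -1.91 with dextran and -1.55 in control medium, whereas that of all genes tested was 0.36, 0.34 and 0.41 in the same order. Leaving out control oocyte libraries 1 and 2 and blebbistatin oocyte library 1 moved the control median of the 28 genes to -1.91. In bulk RNA, fewer cells of a type and less RNA per cell cannot be told apart, and levels are relative to all RNA of the library.

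**Figure D1:**
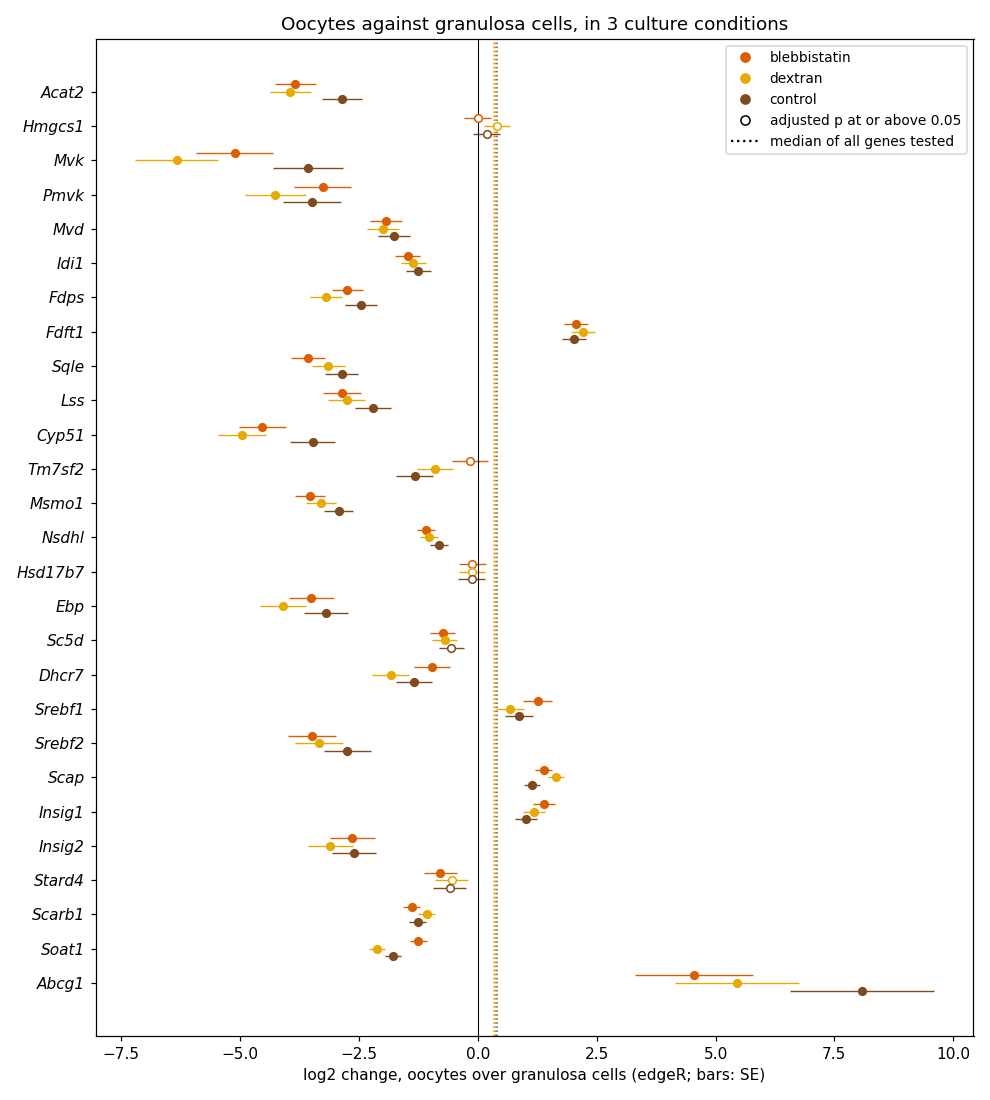
Log2 change in oocytes over granulosa cells with its standard error (edgeR, 4 against 4 libraries) for 27 genes in blebbistatin, dextran and control culture, with Abca1 left out because it had 0 counts in 2 of the oocyte groups. Open symbols did not pass, and dotted lines mark the median of all genes tested; Fdft1, Srebf1, Scap, Insig1 and Abcg1 lie to the right of 0 in all 3 conditions.

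The scaling of oocyte against granulosa libraries bears on each of these values. With library totals alone in place of TMM factors, the median of all genes tested in control medium moved to 0.06 from 0.41. Relative to the median of all genes, the 5 higher genes in control medium stood at 1.61 (Fdft1), 0.45 (Srebf1), 0.73 (Scap), 0.60 (Insig1) and 7.67 (Abcg1). Fdft1, Scap and Insig1 passed under every scaling and with every single library left out. Srebf1 did not pass with library totals alone, at 0.52 with adjusted p = 0.125, nor with upper-quartile factors, at 0.58 with adjusted p = 0.0956. Hmgcs1 turned direction between scalings and is treated as undecided.

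**Figure D2:**
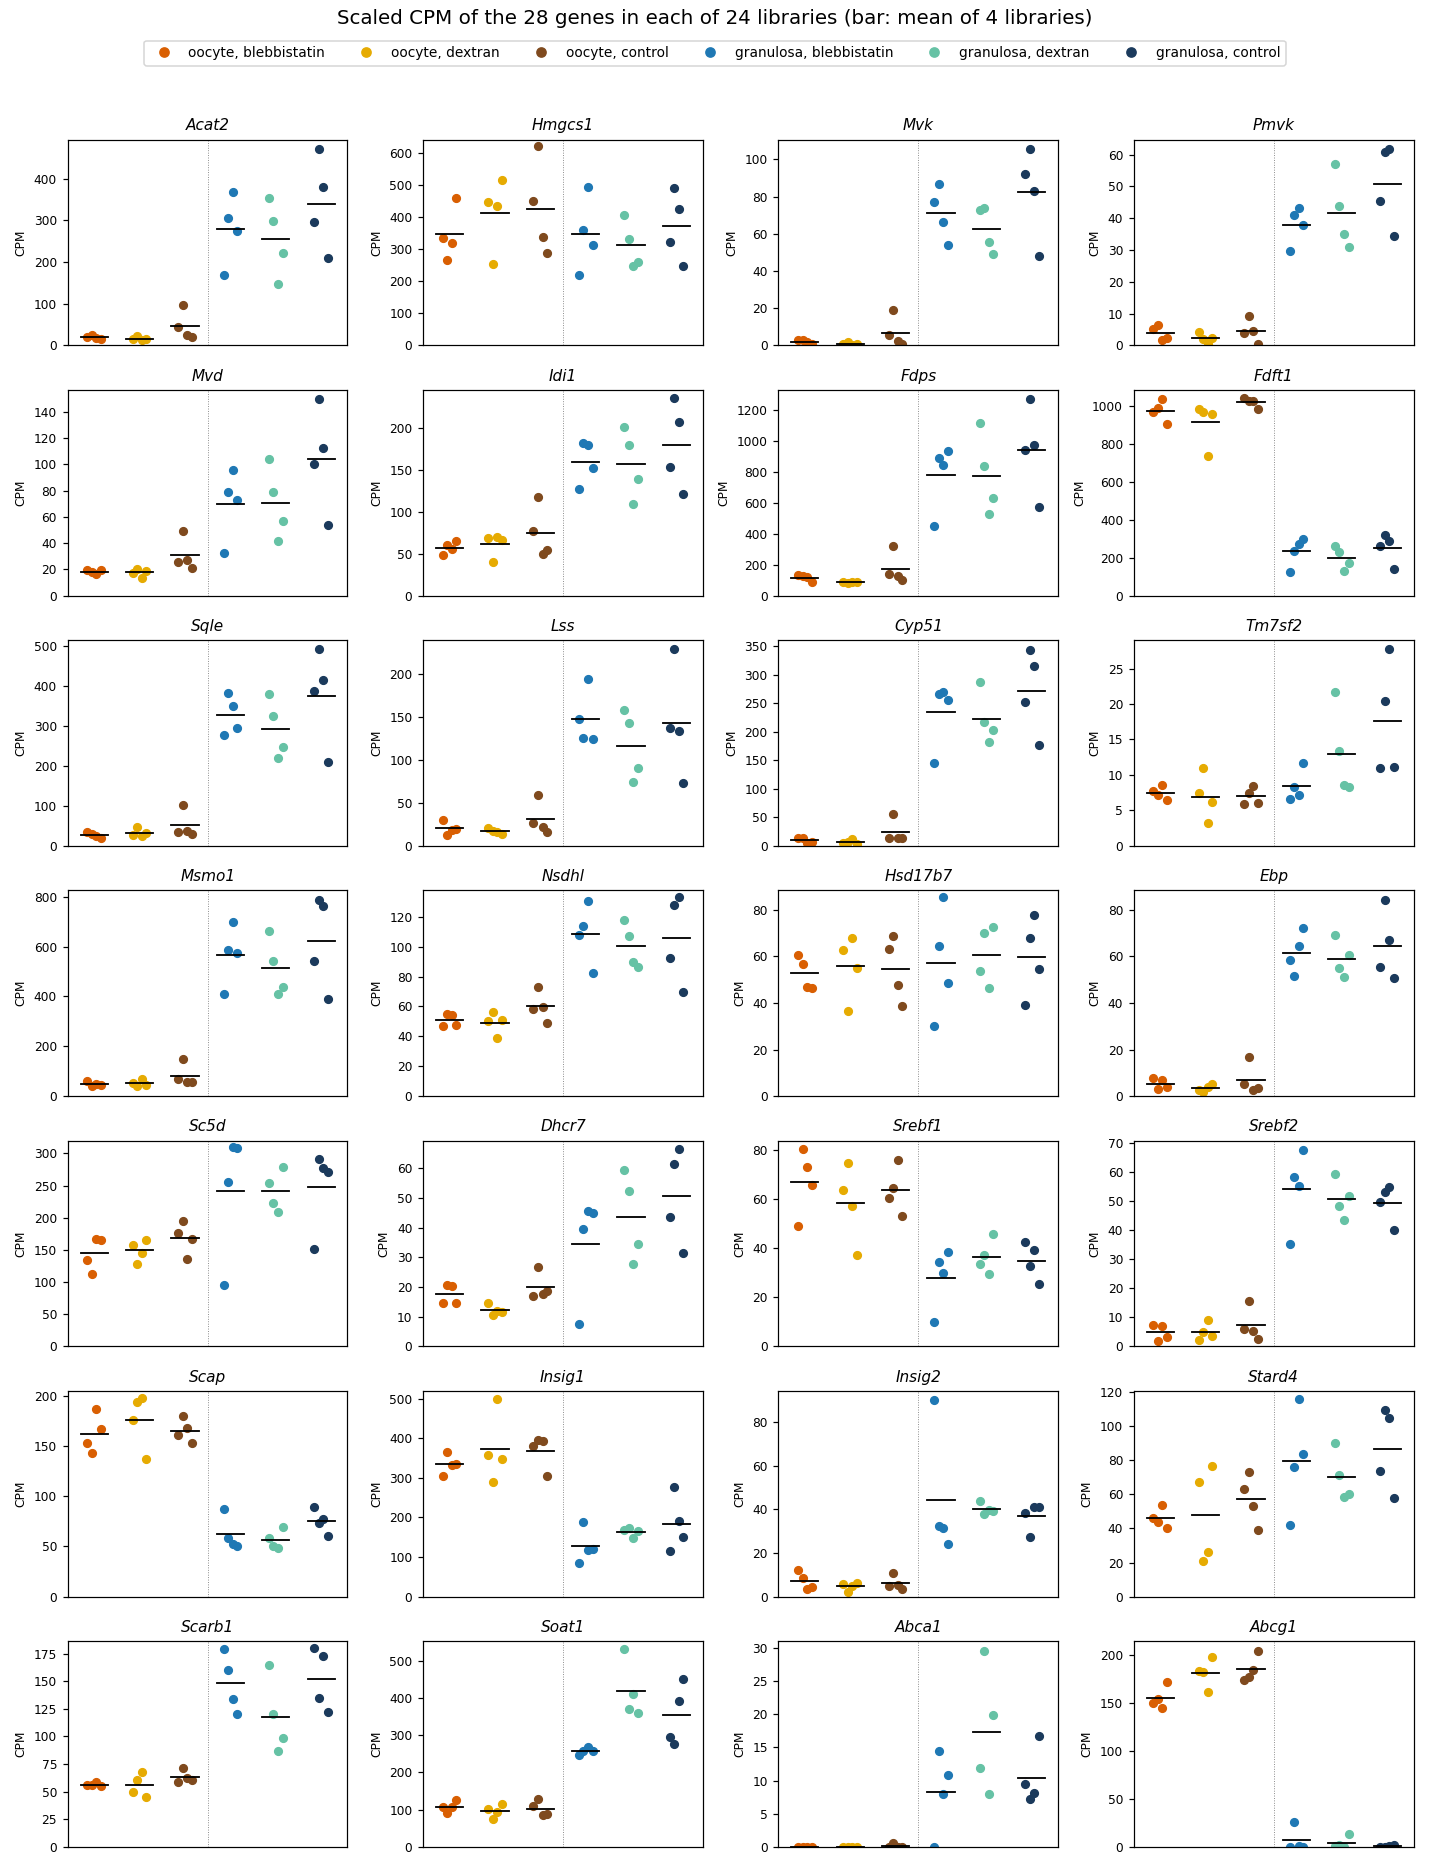
Scaled counts (CPM) of each of the 28 genes in every library, with oocyte groups left of granulosa groups, 1 point per library and a bar at the mean of 4 libraries; each axis starts at 0. Fdft1, Srebf1, Scap, Insig1 and Abcg1 are higher in the oocyte groups, Hmgcs1 and Hsd17b7 overlap, and most other genes are higher in the granulosa groups.

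The 7 genes of the mevalonate steps lead from acetyl-CoA to farnesyl diphosphate. Of these, 6 were lower in oocytes in every condition, against 29.4% of all genes tested. Values are given as CPM, counts scaled to library size with TMM factors, for libraries 1 to 4 in order, and log2 changes ± SE from edgeR. Acat2, the cytosolic thiolase that joins acetyl-CoA units, had 20.1, 25.6, 17.6 and 14.7 CPM in blebbistatin oocytes, 14.5, 23.6, 11.9 and 16.3 CPM in dextran oocytes and 43.6, 96.7, 25.4 and 21.1 CPM in control oocytes. It had 169, 307, 369.6 and 274 CPM in blebbistatin granulosa cells, 354, 298, 147 and 222 CPM in dextran granulosa cells and 296, 471, 379 and 209 CPM in control granulosa cells. All 12 oocyte libraries lay below all 12 granulosa libraries, and control oocyte library 2 was the highest of the oocyte libraries. Reads of Acat2 may be shared with its near copy Acat3, which stood at 0.108 to 2.01 CPM in granulosa libraries.

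Hmgcs1, the cytosolic synthase that makes HMG-CoA, departed from the other mevalonate genes. It had 337, 268, 321 and 460.0 CPM in blebbistatin oocytes, 447, 253, 434 and 516 CPM in dextran oocytes and 449.5, 622, 337 and 288 CPM in control oocytes. The gene had 219, 361, 494 and 313 CPM in blebbistatin granulosa cells, 408, 332, 248 and 262 CPM in dextran granulosa cells and 322, 493, 426 and 249 CPM in control granulosa cells. The groups overlapped in each condition, with log2 changes of -0.00 ± 0.28 with blebbistatin, 0.40 ± 0.28 with dextran and 0.19 ± 0.28 in control medium. None passed in edgeR with TMM factors, with adjusted p between 0.195 and 0.996. With dextran Hmgcs1 passed as higher in oocytes under DESeq2 (0.58, adjusted p = 0.0442) and with RLE factors (0.58, adjusted p = 0.0441).

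Mvk and Pmvk, the kinases that phosphorylate mevalonate and its phosphate, were among the genes with the largest falls. Mvk had 3.02, 2.76, 1.57 and 0.794 CPM in blebbistatin oocytes, 0.799, 1.73, 0 and 0.551 CPM in dextran oocytes and 5.57, 18.9, 2.52 and 0.501 CPM in control oocytes. Mvk had 76.8, 86.7, 66.5 and 54.1 CPM in blebbistatin granulosa cells, 72.8, 74.0, 55.3 and 48.9 CPM in dextran granulosa cells and 92.3, 105, 83.1 and 48.1 CPM in control granulosa cells. Oocyte and granulosa libraries did not overlap, and the oocyte level was highest in control library 2, where the granulosa markers were also highest. For Pmvk the values were 5.17, 6.53, 1.64 and 2.38 CPM in blebbistatin oocytes, 4.14, 1.87, 0.511 and 2.21 CPM in dextran oocytes and 3.90, 9.12, 4.42 and 0.563 CPM in control oocytes. They were 29.6, 40.9, 43.1 and 38.0 CPM in blebbistatin granulosa cells, 56.9, 43.9, 35.0 and 31.1 CPM in dextran granulosa cells and 45.4, 61.0, 61.7 and 34.5 CPM in control granulosa cells. Pmvk was again lower in all oocyte libraries, with log2 changes of -3.27 ± 0.60 with blebbistatin, -4.26 ± 0.64 with dextran and -3.49 ± 0.61 in control medium.

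Mvd, the decarboxylase that yields isopentenyl diphosphate, had 19.4, 17.9, 16.7 and 19.2 CPM in blebbistatin oocytes, 17.6, 20.3, 13.7 and 19.1 CPM in dextran oocytes and 25.6, 48.9, 26.9 and 21.3 CPM in control oocytes. It had 32.6, 78.9, 95.3 and 72.7 CPM in blebbistatin granulosa cells, 104, 78.5, 41.9 and 57.0 CPM in dextran granulosa cells and 99.9, 149.9, 112 and 54.1 CPM in control granulosa cells. Idi1, its isomerase, had 49.0, 60.2, 56.0 and 64.8 CPM in blebbistatin oocytes, 69.0, 40.8, 70.3 and 66.006 CPM in dextran oocytes and 77.3, 118, 49.8 and 54.6 CPM in control oocytes. The levels of Mvd and Idi1 fell less than those of the kinases: the log2 changes of Mvd were -1.93 ± 0.34 with blebbistatin, -1.99 ± 0.34 with dextran and -1.76 ± 0.34 in control medium. Idi1 had 127, 182, 179.6 and 152 CPM in blebbistatin granulosa cells, 202, 179.7, 109.9 and 139 CPM in dextran granulosa cells and 153, 236, 207 and 121 CPM in control granulosa cells. Its log2 changes were -1.48 ± 0.26 with blebbistatin, -1.36 ± 0.26 with dextran and -1.26 ± 0.26 in control medium, and control oocyte library 2 again gave its highest oocyte value.

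Fdps, which makes farnesyl diphosphate for sterols and for other isoprenoids, had 131, 127, 119 and 90.9 CPM in blebbistatin oocytes, 88.0, 79.9, 87.8 and 85.9 CPM in dextran oocytes and 139, 319.5, 127 and 99.5 CPM in control oocytes. Fdps had 449, 894, 849 and 936 CPM in blebbistatin granulosa cells, 1116, 838, 530.3 and 629.8 CPM in dextran granulosa cells and 945, 1274, 977 and 576 CPM in control granulosa cells. The 2 cell types did not overlap. The log2 change was -3.19 with dextran (adjusted p = 3.5e-08, edgeR) and -2.46 in control medium (adjusted p = 9.96e-07). The control value was -3.06 without control oocyte libraries 1 and 2 and blebbistatin oocyte library 1.

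Squalene synthase, encoded by Fdft1, commits farnesyl diphosphate to sterols, and of the 18 synthesis genes it alone was higher in oocytes. Lbr, which is not among the 18 but can take the step of Tm7sf2, was higher as well and is described below. Fdft1 had 964, 988, 1035 and 900.3 CPM in blebbistatin oocytes, 984.45, 964, 737 and 958 CPM in dextran oocytes and 1037, 1022, 1022 and 982.47 CPM in control oocytes. It had 123, 237, 274 and 299 CPM in blebbistatin granulosa cells, 260.4, 229, 128 and 170.3 CPM in dextran granulosa cells and 262, 317, 287 and 138 CPM in control granulosa cells. Every oocyte library exceeded every granulosa library, and the log2 changes were 2.06 ± 0.26 with blebbistatin, 2.21 ± 0.26 with dextran and 2.02 ± 0.26 in control medium. Adjusted p ran from 1.33e-07 to 4.85e-07 over the 3 conditions (edgeR). Control oocyte library 2 did not stand above the other control oocyte libraries for this gene.

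The next 2 enzymes ran the other way. Sqle, the squalene epoxidase, had 34.8, 29.0, 25.8 and 19.7 CPM in blebbistatin oocytes, 26.9, 46.5, 25.8 and 33.4 CPM in dextran oocytes and 35.0, 102, 38.2 and 30.7 CPM in control oocytes. The granulosa values were 278, 384, 351 and 295 CPM in blebbistatin granulosa cells, 381, 325, 219 and 248 CPM in dextran granulosa cells and 389, 492, 415 and 211 CPM in control granulosa cells. Its log2 changes were -3.58 ± 0.36 with blebbistatin, -3.15 ± 0.35 with dextran and -2.87 ± 0.35 in control medium, with no overlap between the cell types. Lss, which closes the ring to lanosterol, had 30.5, 13.1, 18.9 and 19.3 CPM in blebbistatin oocytes, 20.7, 17.3, 16.7 and 14.02 CPM in dextran oocytes and 26.7, 59.5, 22.6 and 15.8 CPM in control oocytes. Lss had 148, 126, 195 and 125 CPM in blebbistatin granulosa cells, 158, 143, 74.9 and 91.0 CPM in dextran granulosa cells and 138, 229, 135 and 73.1 CPM in control granulosa cells. Lss was lower in oocytes, with log2 changes of -2.86 with blebbistatin, -2.76 with dextran and -2.21 in control medium, all passing.

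The 8 genes from lanosterol to cholesterol split into those far lower in oocytes and those closer to the granulosa level. Cyp51, the lanosterol demethylase, had 13.8, 14.4, 5.55 and 6.79 CPM in blebbistatin oocytes, 5.23, 7.13, 11.9 and 4.17 CPM in dextran oocytes and 13.2, 56.7, 13.3 and 14.4 CPM in control oocytes. Against this stood 146, 266, 270.2 and 256 CPM in blebbistatin granulosa cells, 288, 218, 182 and 203 CPM in dextran granulosa cells and 253, 344, 316 and 176 CPM in control granulosa cells. The log2 changes were -4.53 ± 0.49 with blebbistatin, -4.96 ± 0.51 with dextran and -3.48 ± 0.47 in control medium. Without control oocyte libraries 1 and 2 and blebbistatin oocyte library 1, the control value was -4.30.

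Msmo1, the oxidase that removes methyl groups from the sterol ring, had 61.4, 39.6, 50.5 and 45.9 CPM in blebbistatin oocytes, 51.2, 41.6, 69.3 and 45.8 CPM in dextran oocytes and 69.6, 148, 55.1 and 55.2 CPM in control oocytes. It had 410.3, 588, 697 and 576 CPM in blebbistatin granulosa cells, 664, 541, 411 and 439 CPM in dextran granulosa cells and 543, 789, 764 and 391 CPM in control granulosa cells. Ebp, the isomerase that moves a ring double bond, had 7.72, 2.90, 6.91 and 4.12 CPM in blebbistatin oocytes, 2.76, 1.67, 4.09 and 5.20 CPM in dextran oocytes and 5.10, 16.6, 2.72 and 3.44 CPM in control oocytes. Both genes showed no overlap between cell types. The granulosa values of Ebp were 58.4, 51.4, 64.3 and 72.1 CPM in blebbistatin granulosa cells, 69.1, 55.1, 50.9 and 60.4 CPM in dextran granulosa cells and 55.2, 84.2, 67.1 and 50.5 CPM in control granulosa cells. Log2 changes in control medium were -2.92 ± 0.31 for Msmo1 and -3.20 ± 0.47 for Ebp (SE, adjusted p = 3.3e-08 and 3.22e-06, edgeR). They were -3.50 and -4.38 without control oocyte libraries 1 and 2 and blebbistatin oocyte library 1.

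Nsdhl, a dehydrogenase of the same demethylation, had 47.1, 54.8, 54.6 and 47.4 CPM in blebbistatin oocytes, 50.3, 56.3, 39.0 and 51.0 CPM in dextran oocytes and 58.3, 73.3, 59.7 and 49.0 CPM in control oocytes. Nsdhl had 108, 114, 130.4 and 82.2 CPM in blebbistatin granulosa cells, 118, 107, 89.7 and 86.3 CPM in dextran granulosa cells and 92.4, 128, 133 and 69.9 CPM in control granulosa cells. It was lower in all 3 conditions but by less than Msmo1, with log2 changes of -1.09 ± 0.19 with blebbistatin, -1.03 ± 0.19 with dextran and -0.82 ± 0.19 in control medium. Hsd17b7, the keto reductase of that complex, ranged from 36.7 to 68.9 CPM over the oocyte libraries and from 30.3 to 85.6 CPM over the granulosa libraries. Hsd17b7 did not pass in any condition, with log2 changes between -0.13 and -0.12.

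Sc5d, a desaturase near the end of the route, had 135, 113, 167 and 165 CPM in blebbistatin oocytes, 158, 128, 145 and 166 CPM in dextran oocytes and 177, 195, 136 and 167 CPM in control oocytes. It had 95.7, 256, 309 and 308 CPM in blebbistatin granulosa cells, 255, 223, 209 and 279.6 CPM in dextran granulosa cells and 152, 291, 278 and 271 CPM in control granulosa cells. Sc5d lay near the threshold in all 3 conditions, with -0.74 with blebbistatin (adjusted p = 0.0136, edgeR), -0.70 with dextran (adjusted p = 0.0192) and -0.56 in control medium (adjusted p = 0.0562). The blebbistatin call was lost under limma voom (adjusted p = 0.104), in a fit of the 2 groups alone (0.0696), and without control granulosa library 3, dextran granulosa library 2, 3 or 4 or control oocyte library 2 (adjusted p = 0.0513 to 0.0534). The dextran call was lost under DESeq2 (adjusted p = 0.0731), limma voom (0.0535) and RLE factors (0.0698), and without dextran granulosa library 4 or dextran oocyte library 2 or 3 (adjusted p = 0.0537 to 0.0832). In control medium Sc5d passed with upper-quartile factors (adjusted p = 0.00529), library totals alone (0.00283), a fit of the 2 groups alone (0.026) and without blebbistatin granulosa libraries 1 and 2 together (0.00152). It passed there as well when any one of 13 libraries was left out, among them control granulosa library 1 (adjusted p = 0.00879). Granulosa control library 1 and blebbistatin library 1 were the low ones in their groups.

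Dhcr7, the last reductase to cholesterol, had 14.7, 20.8, 20.3 and 14.7 CPM in blebbistatin oocytes, 14.6, 10.7, 11.8 and 11.7 CPM in dextran oocytes and 16.9, 26.9, 17.6 and 18.7 CPM in control oocytes. It had 7.55, 39.6, 45.6 and 44.8 CPM in blebbistatin granulosa cells, 59.3, 52.4, 27.6 and 34.3 CPM in dextran granulosa cells and 43.6, 61.4, 66.4 and 31.4 CPM in control granulosa cells. The log2 changes were -0.96 ± 0.38 with blebbistatin, -1.83 ± 0.39 with dextran and -1.34 ± 0.39 in control medium, and the blebbistatin call was lost under limma voom at -0.67 with adjusted p = 0.267, with RLE factors at -0.80 with adjusted p = 0.0565, and in a fit of the 2 groups alone with adjusted p = 0.107. It was also lost without control oocyte libraries 1 and 2 and blebbistatin oocyte library 1 together (adjusted p = 0.0736), and without control granulosa library 1 or 3, dextran granulosa library 2, 3 or 4 or control oocyte library 2 (adjusted p = 0.063 to 0.0728). Blebbistatin granulosa library 1 lay below all blebbistatin oocyte libraries. Tm7sf2, a sterol reductase whose step Lbr can also carry out, had 7.72, 7.12, 8.54 and 6.43 CPM in blebbistatin oocytes, 7.41, 10.9, 3.19 and 6.22 CPM in dextran oocytes and 5.97, 7.43, 8.50 and 6.01 CPM in control oocytes. For granulosa cells the values were 6.56, 8.24, 7.11 and 11.7 CPM in blebbistatin granulosa cells, 21.7, 13.4, 8.58 and 8.26 CPM in dextran granulosa cells and 10.9, 20.4, 27.8 and 11.1 CPM in control granulosa cells. Tm7sf2 was lower in control oocytes (-1.33, adjusted p = 0.0039, edgeR) and with dextran (-0.90, adjusted p = 0.0361), but did not pass with blebbistatin (-0.17, adjusted p = 0.686). The dextran call was lost under DESeq2, limma voom, RLE factors, no filter on low counts and a fit of the 2 groups alone. It was also lost without control oocyte libraries 1 and 2 and blebbistatin oocyte library 1 together (adjusted p = 0.0525), without blebbistatin granulosa libraries 1 and 2 together (0.0559), and without control granulosa library 1 or 3, dextran granulosa library 1 or 2, control oocyte library 2 or dextran oocyte library 1 or 3 (adjusted p = 0.0512 to 0.16).

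Summed over the 18 synthesis genes, the level was 1923 ± 53.9 CPM in blebbistatin oocytes and 3771 ± 872 CPM in blebbistatin granulosa cells. It was 1894 ± 171 CPM in dextran oocytes and 3540.3 ± 886 CPM in dextran granulosa cells. Control oocytes had 2282 ± 512 CPM and control granulosa cells 4283 ± 1220 CPM (mean ± SD, n = 4 each). Counts were not corrected for transcript length, so the make-up of the sum is a share of counts. Fdft1 and Hmgcs1 together gave 54.6% to 71.7% of the sum in oocyte libraries and 13.6% to 16.96% in granulosa libraries. Fdps gave 4.18% to 10.6% in oocyte libraries and 17.8% to 24.045% in granulosa libraries. Control oocyte library 2 had the highest sum of the oocyte libraries, 3010.4 CPM, and the lowest share of Fdft1 and Hmgcs1, 54.6%.

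**Figure D3:**
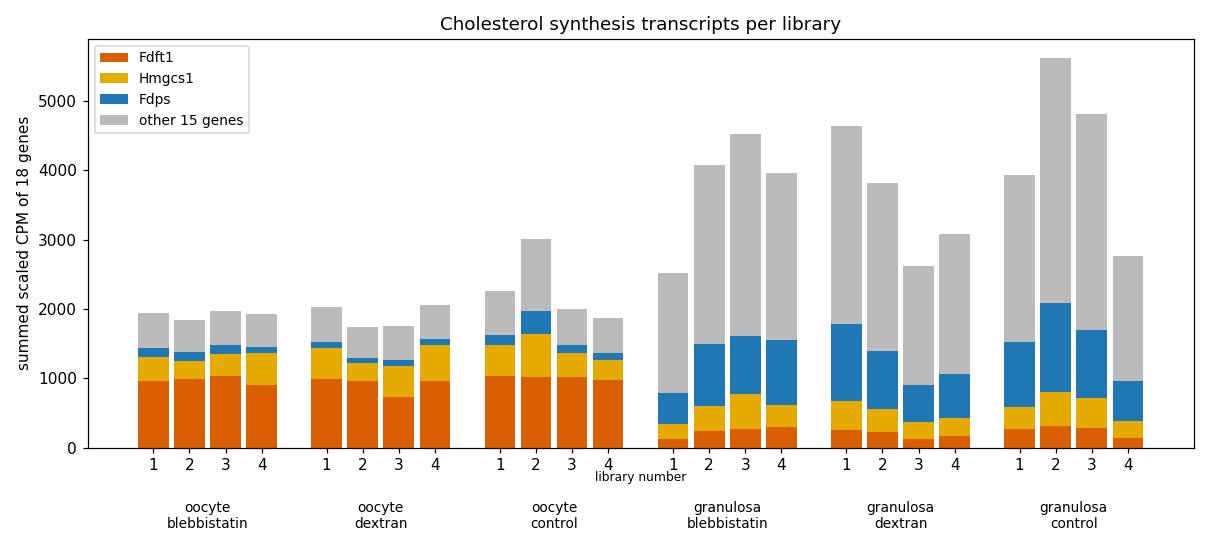
Summed scaled counts (CPM) of the 18 synthesis genes in each library, stacked by Fdft1, Hmgcs1, Fdps and the other 15 genes; libraries are numbered 1 to 4 within a group and the axis starts at 0. Fdft1 and Hmgcs1 make up 54.6% to 71.7% of the bars in oocyte libraries and 13.6% to 16.96% in granulosa libraries.

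Of the 5 sterol-sensing genes, 3 were higher in oocytes and 2 lower in all 3 conditions. Over all genes tested these shares were 40.3% and 29.4%, and 5 genes are too few to tell apart from them. Insig1, a retention protein whose gene is itself a target of SREBP, had 304, 364, 332 and 336 CPM in blebbistatin oocytes, 358, 290.0, 499 and 346 CPM in dextran oocytes and 380.4, 395, 394 and 304 CPM in control oocytes. It had 85.1, 188, 118 and 119.5 CPM in blebbistatin granulosa cells, 168, 174, 147 and 167 CPM in dextran granulosa cells and 115, 276, 190.5 and 151 CPM in control granulosa cells. All oocyte libraries lay above the granulosa libraries of the same treatment, with log2 changes of 1.39 ± 0.23 with blebbistatin, 1.19 ± 0.23 with dextran and 1.01 ± 0.23 in control medium. Insig2, the related protein, had 12.2, 8.64, 3.56 and 4.26 CPM in blebbistatin oocytes, 5.59, 1.93, 5.05 and 6.07 CPM in dextran oocytes and 4.78, 10.7, 5.37 and 3.51 CPM in control oocytes. It had 90.1, 32.4, 31.5 and 24.3 CPM in blebbistatin granulosa cells, 44.0, 37.7, 39.7 and 39.3 CPM in dextran granulosa cells and 38.5, 27.4, 41.4 and 41.1 CPM in control granulosa cells. The pair thus differed in direction, since Insig2 was lower, with log2 changes of -2.64 with blebbistatin, -3.11 with dextran and -2.61 in control medium, all passing. Blebbistatin granulosa library 1, at 90.1 CPM, was far above the others for Insig2.

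Scap, the escort protein, had 152, 143, 187 and 167 CPM in blebbistatin oocytes, 176, 193, 197 and 137 CPM in dextran oocytes and 160.4, 179.6, 168 and 153 CPM in control oocytes. Scap had 87.7, 58.3, 52.9 and 50.0 CPM in blebbistatin granulosa cells, 58.3, 50.1, 47.9 and 69.6 CPM in dextran granulosa cells and 88.8, 73.6, 77.7 and 60.3 CPM in control granulosa cells. Its log2 changes were 1.38 ± 0.17 with blebbistatin, 1.64 ± 0.17 with dextran and 1.14 ± 0.17 in control medium, with no overlap between cell types. Srebf1, which encodes SREBP1 and is counted here without its isoforms apart, had 49.1, 80.2, 72.9 and 65.6 CPM in blebbistatin oocytes, 63.6, 74.5, 57.0 and 37.3 CPM in dextran oocytes and 60.4, 64.3, 75.9 and 52.9 CPM in control oocytes. It had 9.82, 34.2, 29.7 and 38.2 CPM in blebbistatin granulosa cells, 33.6, 37.0, 29.5 and 45.6 CPM in dextran granulosa cells and 42.4, 32.6, 39.3 and 25.2 CPM in control granulosa cells. Srebf1 was higher in oocytes, with log2 changes of 1.26 with blebbistatin, 0.68 with dextran and 0.86 in control medium, with adjusted p of 0.000775, 0.0438 and 0.013 in the same order (edgeR). Dextran oocyte library 4 fell inside the range of the dextran granulosa libraries. The dextran call was lost with upper-quartile factors (adjusted p = 0.137), library totals alone (0.218), no filter on low counts (0.0922) and a replicate block (0.0561), and without control oocyte libraries 1 and 2 and blebbistatin oocyte library 1 together (0.0567). It was also lost without any one of 12 libraries (adjusted p = 0.0502 to 0.165): blebbistatin granulosa 2, 3 or 4, dextran granulosa 1, 2 or 3, control granulosa 2, blebbistatin oocyte 1 or 4, dextran oocyte 1 or 2, or control oocyte 1.

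Srebf2, which encodes SREBP2, the main activator of the synthesis genes, had 7.32, 1.82, 6.91 and 3.18 CPM in blebbistatin oocytes, 2.32, 4.93, 9.20 and 3.47 CPM in dextran oocytes and 5.89, 15.7, 5.23 and 2.69 CPM in control oocytes. It had 35.3, 58.3, 55.1 and 67.6 CPM in blebbistatin granulosa cells, 59.5, 48.4, 43.4 and 51.7 CPM in dextran granulosa cells and 49.6, 53.2, 54.9 and 40.2 CPM in control granulosa cells. All oocyte libraries lay below all granulosa libraries, and the log2 changes were -3.49 ± 0.50 with blebbistatin, -3.34 ± 0.50 with dextran and -2.75 ± 0.49 in control medium. Control oocyte library 2, at 15.7 CPM, gave the highest oocyte value.

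Stard4, which carries cholesterol through the cytosol, had 45.9, 44.0, 53.5 and 40.3 CPM in blebbistatin oocytes, 67.2, 21.1, 26.3 and 76.5 CPM in dextran oocytes and 63.4, 73.3, 53.2 and 39.4 CPM in control oocytes. It had 41.8, 76.3, 116 and 83.8 CPM in blebbistatin granulosa cells, 90.2, 71.2, 58.6 and 60.1 CPM in dextran granulosa cells and 73.9, 109.7, 105 and 58.0 CPM in control granulosa cells. The groups overlapped, and Stard4 passed with blebbistatin alone (-0.79, adjusted p = 0.0445, edgeR), a call lost under DESeq2, limma voom, RLE factors, no filter on low counts and a replicate block. It was lost as well without control oocyte libraries 1 and 2 and blebbistatin oocyte library 1 together (adjusted p = 0.0811) and without any one of 13 libraries (adjusted p = 0.0506 to 0.108): blebbistatin granulosa 3, dextran granulosa 2, 3 or 4, control granulosa 1 or 3, blebbistatin oocyte 2, 3 or 4, dextran oocyte 3, or control oocyte 1, 2 or 3. Stard4 passed in control medium with upper-quartile factors (adjusted p = 0.0169), library totals alone (0.0129), a fit of the 2 groups alone (0.0415), and without blebbistatin granulosa library 1 (0.0494) or libraries 1 and 2 together (0.0402). With dextran it passed with upper-quartile factors (adjusted p = 0.0454), library totals alone (0.0263) and without dextran oocyte library 4 (0.0178).

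Scarb1, the receptor for high-density lipoprotein, had 55.9, 56.4, 58.4 and 55.2 CPM in blebbistatin oocytes, 49.5, 60.1, 67.9 and 45.4 CPM in dextran oocytes and 58.9, 71.5, 62.8 and 60.3 CPM in control oocytes. It had 179, 160.3, 134 and 121 CPM in blebbistatin granulosa cells, 164, 121, 86.5 and 99.0 CPM in dextran granulosa cells and 179.7, 135, 173 and 122 CPM in control granulosa cells. Scarb1 was lower in oocytes in all conditions, with log2 changes of -1.40 ± 0.18 with blebbistatin, -1.08 ± 0.18 with dextran and -1.26 ± 0.18 in control medium and no overlap between cell types.

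Soat1, which esterifies cholesterol for storage, had 106, 92.3, 108 and 127 CPM in blebbistatin oocytes, 102, 74.7, 92.5 and 115 CPM in dextran oocytes and 111, 127, 85.8 and 87.1 CPM in control oocytes. Soat1 had 247, 258, 267 and 257 CPM in blebbistatin granulosa cells, 530.0, 370.4, 410.4 and 360.5 CPM in dextran granulosa cells and 296, 277, 391 and 449.9 CPM in control granulosa cells. Its log2 changes between cell types were -1.25 ± 0.17 with blebbistatin, -2.12 ± 0.18 with dextran and -1.78 ± 0.17 in control medium, all passing.

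The 2 efflux transporters ran in opposite directions. Abcg1, which exports cholesterol to high-density lipoprotein, had 149.8, 154, 145 and 172 CPM in blebbistatin oocytes, 183, 182, 161 and 198 CPM in dextran oocytes and 174, 177, 184 and 204 CPM in control oocytes. It had 0, 25.7, 0.925 and 0 CPM in blebbistatin granulosa cells, 1.03, 1.69, 0.170 and 13.6 CPM in dextran granulosa cells and 0.127, 0.407, 0.462 and 1.84 CPM in control granulosa cells. All oocyte libraries lay above all granulosa libraries. The log2 changes were 4.54 ± 1.25 with blebbistatin, 5.46 ± 1.30 with dextran and 8.08 ± 1.51 in control medium. With 1 library left out at a time they ran from 4.00 to 8.79, from 5.01 to 7.60 and from 7.67 to 9.08 in the same order. Blebbistatin granulosa library 2, one of the pair with macrophage transcripts, and dextran granulosa library 4 held the 2 highest granulosa values. Macrophages are known to express Abcg1. In blebbistatin granulosa library 1, the other of the pair, Lyz2 was at 339.6 CPM and Abcg1 at 0. Lyz2 was at 0 in dextran granulosa library 4, and the part of macrophage transcripts in the Abcg1 level was not tested.

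Abca1, which loads cholesterol onto lipid-poor apolipoproteins, had 0 counts in all 8 treated oocyte libraries and in control oocyte libraries 1, 3 and 4. Control oocyte library 2 held 0.541 CPM. The granulosa values were 0, 14.5, 7.98 and 10.9 CPM in blebbistatin granulosa cells, 11.8, 29.6, 7.94 and 20.0 CPM in dextran granulosa cells and 9.46, 7.16, 8.11 and 16.7 CPM in control granulosa cells. Blebbistatin granulosa library 1 was at 0 as well, so those groups overlapped, whereas dextran and control granulosa libraries all exceeded the oocyte libraries. Against a floor of 3 counts per library, Abca1 was at least 38.3-fold lower in oocytes with blebbistatin and at least 73.4-fold lower with dextran. In control medium the log2 change was -6.17 ± 1.41 (SE, adjusted p = 0.00101, edgeR), and it rests on the counts of that 1 oocyte library.

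Each gene was set beside the granulosa material in a library. Its level in an oocyte library was taken as a percent of the granulosa mean of the same treatment. In the 9 oocyte libraries with marker medians under 1%, Fdft1 had a median of 424%, Scap 268%, Insig1 218% and Srebf1 204%. Hmgcs1 stood at 92.6%, Hsd17b7 at 82.3% and Sc5d at 65.5%. Intermediate values were those of Tm7sf2 (57.0%), Stard4 (55.4%), Nsdhl (50.3%), Scarb1 (39.6%), Idi1 (37.6%), Dhcr7 (34.7%), Mvd (25.6%) and Soat1 (24.7%). Low values were those of Lss (12.996%), Insig2 (12.6%), Fdps (11.3%), Sqle (8.88%), Msmo1 (8.88%), Srebf2 (6.83%), Acat2 (6.28%), Ebp (5.36%), Pmvk (5.29%), Cyp51 (3.20%) and Mvk (1.27%). Abca1 was at 0% in these 9. These medians pool 3 treatments whose granulosa means differ: Tm7sf2 stood at 76.5% to 101.7% in blebbistatin oocytes, 24.6% to 84.2% in dextran oocytes and 34.2% and 48.4% in the 2 control oocyte libraries among the 9. In all 12 oocyte libraries 26 of the 28 genes exceeded the marker median of their own library. The exceptions were Mvk, which did so in 11 libraries, and Abca1, which did so in 0. The line is a median, so the upper part of its own 14 markers exceeds it by construction. No such count was made over all genes. Among the markers, Nr5a2 stood at 23.9 to 55.1 CPM in oocyte libraries against 171 to 271 CPM in granulosa libraries. Cyp19a1 was higher in oocyte than in granulosa libraries. Kitl stood at 2.862% to 11.83% in the 9 oocyte libraries with marker medians under 1%, where Amh stood at 0% to 1.358%. In control oocyte library 2 the markers Amh and Kitl stood at 33.55% and 26.47%. Mvk (22.93%), Cyp51 (20.83%) and Ebp (25.88%) lay below both there, and other genes such as Fdft1 (407.1%) lay above both. Neither a percent of a few units nor a level above the marker median therefore separates by itself a gene's own transcription in the oocyte from granulosa material.

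**Figure D4:**
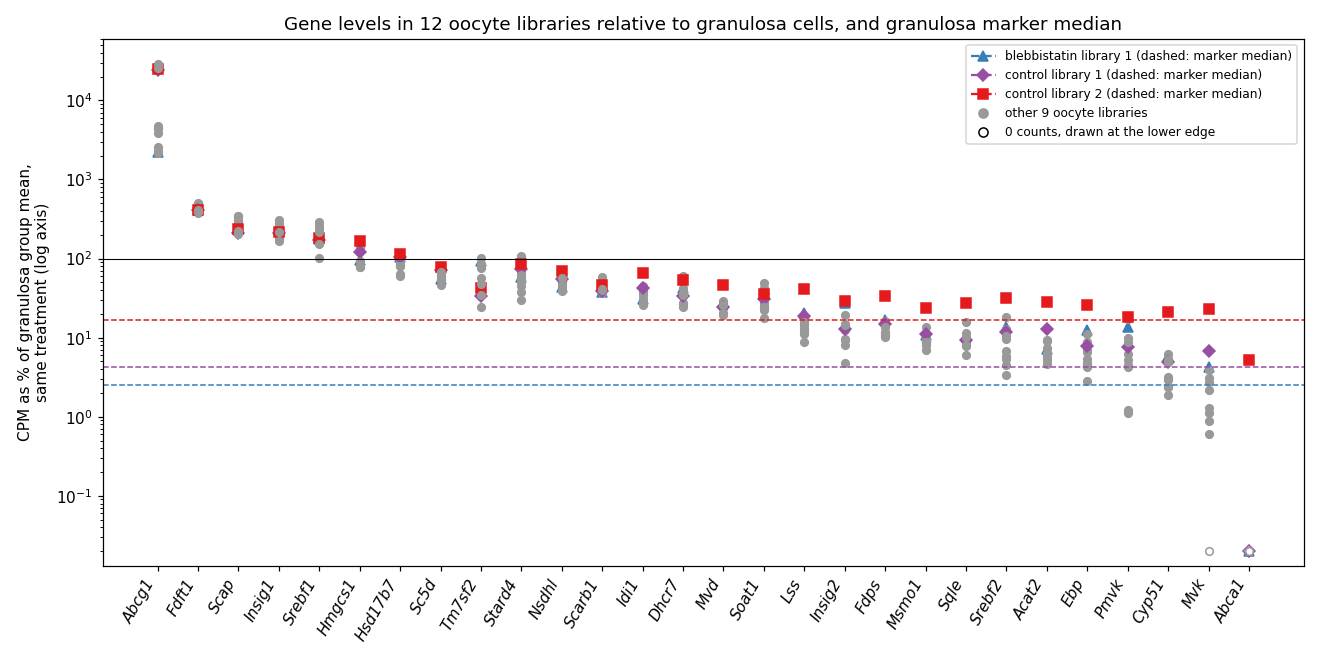
Level of each gene in the 12 oocyte libraries as a percent of the granulosa mean of the same treatment, on a log axis, ordered by the median of the 9 libraries with the least granulosa transcripts. Dashed lines mark the granulosa marker median of 3 libraries; control library 2 (squares, 16.8%) lies at the top of most genes below 100%, while Fdft1, Scap, Insig1, Srebf1 and Abcg1 lie above 100% in every library.

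In granulosa cells, neither treatment moved any of the 28 genes past the threshold. The question is whether blocking myosin II or adding compressive stress altered this route. For blebbistatin against control 0 of 28 genes were called (0.00651% of 15370 genes tested) and 2 had an unadjusted p under 0.05 (10.4% of all tested). For dextran against control 0 were called (0% of all tested) and 0 had an unadjusted p under 0.05 (3.40% of all tested). For blebbistatin against dextran 0 were called (0%) and 1 had an unadjusted p under 0.05 (8.84%). DESeq2 called 1 of the 28 genes, Soat1, for blebbistatin against dextran (1.40% of 15263 genes tested), and 0 for blebbistatin (2.47%) and for dextran (0.358%) against control. Limma voom called 0 of the 28 in the 3 comparisons. The log2 changes of the 18 synthesis genes had a median of -0.19 with blebbistatin, against -0.05 for all genes tested. With dextran the median was -0.27, against -0.004 for all genes tested. Of the 18, 16 were negative with blebbistatin and 17 with dextran, against 8398 and 7764 of the 15370 genes tested. Without blebbistatin granulosa libraries 1 and 2 the blebbistatin median was -0.06, with 10 of 18 genes negative in place of 16, and that of all genes tested was -0.03. Both comparisons share the control libraries.

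Within a granulosa group, 1 library was often highest or lowest for most of the 18 synthesis genes. Among the control granulosa libraries, library 2 was highest for 13 of the 18 synthesis genes and library 4 lowest for 15. Among the dextran libraries, library 1 was highest for 15 and library 3 lowest for 14, and blebbistatin library 1 was lowest in its group for 14. Blebbistatin library 1 also had counts for the fewest genes. The same counts were not made over all genes, so they need not be particular to this route. The summed level ran from 2515 to 4527 CPM in blebbistatin granulosa cells, from 2616 to 4642 CPM in dextran granulosa cells and from 2771 to 5615 CPM in control granulosa cells. The spread inside a group was thus wider than the differences between the group means.

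The gene nearest to a change in granulosa cells was Soat1. All 4 blebbistatin libraries, at 247, 258, 267 and 257 CPM, lay below all 4 dextran libraries, at 530.0, 370.4, 410.4 and 360.5 CPM, with a log2 change of -0.71 ± 0.16 (SE, adjusted p = 0.257, edgeR). DESeq2 called it, with -0.69 and adjusted p = 0.0132. Genes without overlap between these groups were not counted over all genes. Against the control libraries, at 296, 277, 391 and 449.9 CPM, blebbistatin gave -0.46 (adjusted p = 0.327, edgeR). Without blebbistatin libraries 1 and 2, which carried macrophage transcripts, these values were -0.67 against dextran and -0.42 against control. The 11 theca and stroma markers summed to 363 to 1439 CPM in blebbistatin, 18.9 to 321 CPM in dextran and 21.2 to 354 CPM in control granulosa libraries, so they were higher in all 4 blebbistatin libraries, and their part in the Soat1 levels was not tested. Tm7sf2 gave -1.07 for blebbistatin against control (adjusted p = 0.381, edgeR), with blebbistatin libraries at 6.56 to 11.7 CPM and control libraries at 10.9 to 27.8 CPM, which overlapped.

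In oocytes too, no gene passed for either treatment. For blebbistatin against control 0 of the 27 genes tested were called (0% of 16749 genes tested), and 5 had an unadjusted p under 0.05 (4.10% of all tested in either direction), all 5 lower (2.72% of all tested were lower at that p). For dextran against control 0 were called (0%), and 7 had an unadjusted p under 0.05 (5.31% in either direction), all 7 lower (3.52% lower). For blebbistatin against dextran 0 were called (0%), and 1 had an unadjusted p under 0.05 (4.07%). DESeq2 called 0 of the 27 for blebbistatin (0.102% of all tested), dextran (0.0239%) and the 2 treatments against each other (0%), and limma voom called 0 in all 3. Abca1 did not pass the filter on low counts in the oocyte fit.

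For blebbistatin the lowest log2 changes were those of Mvk at -1.58, Cyp51 at -1.14 and Acat2 at -1.13, each with adjusted p = 1 (edgeR). For dextran they were those of Mvk at -2.92, Cyp51 at -1.60, Acat2 at -1.32, Pmvk at -0.89, Ebp at -0.86 and Fdps at -0.86, with adjusted p between 0.857 and 0.973 (edgeR). Control oocyte library 2, which carried the most granulosa transcripts, was the highest control oocyte library for 24 of the 28 genes. The same count was not made over all genes. The part of the granulosa transcripts in these differences was not tested. Without that library, 2 genes had an unadjusted p under 0.05 for blebbistatin (3.69% of all tested) and 5 for dextran (4.45%). Without control oocyte libraries 1 and 2 and blebbistatin oocyte library 1, there were 1 for blebbistatin (4.49% of all tested) and 2 for dextran (5.06%). These were Abcg1 at -0.32 for blebbistatin, and Fdps at -0.40 and Dhcr7 at -0.58 for dextran. In the same fit Acat2 stood at -0.27 for blebbistatin and -0.47 for dextran. That fit leaves 2 control libraries. The median log2 change of the 18 synthesis genes was -0.26 for blebbistatin and -0.56 for dextran with all 12 libraries, and -0.04 and -0.14 in the same order with the 9.

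Dhcr7 changed little when those libraries were left out. It had 14.6, 10.7, 11.8 and 11.7 CPM in dextran oocytes and 16.9, 26.9, 17.6 and 18.7 CPM in control oocytes. All 4 dextran libraries lay below all 4 control libraries, and genes separated in this way were not counted over all genes. The log2 change of Dhcr7 was -0.61 ± 0.20 (SE, adjusted p = 0.857, edgeR) with all libraries and -0.58 with the 9. It was the 1 gene with an unadjusted p under 0.05 for blebbistatin against dextran, at 0.50. None of the 5 genes higher in oocytes than in granulosa cells passed for a treatment. With all 12 libraries their log2 changes in oocytes lay between -0.20 and 0.15 for blebbistatin and between -0.06 and 0.20 for dextran.

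**Figure D5:**
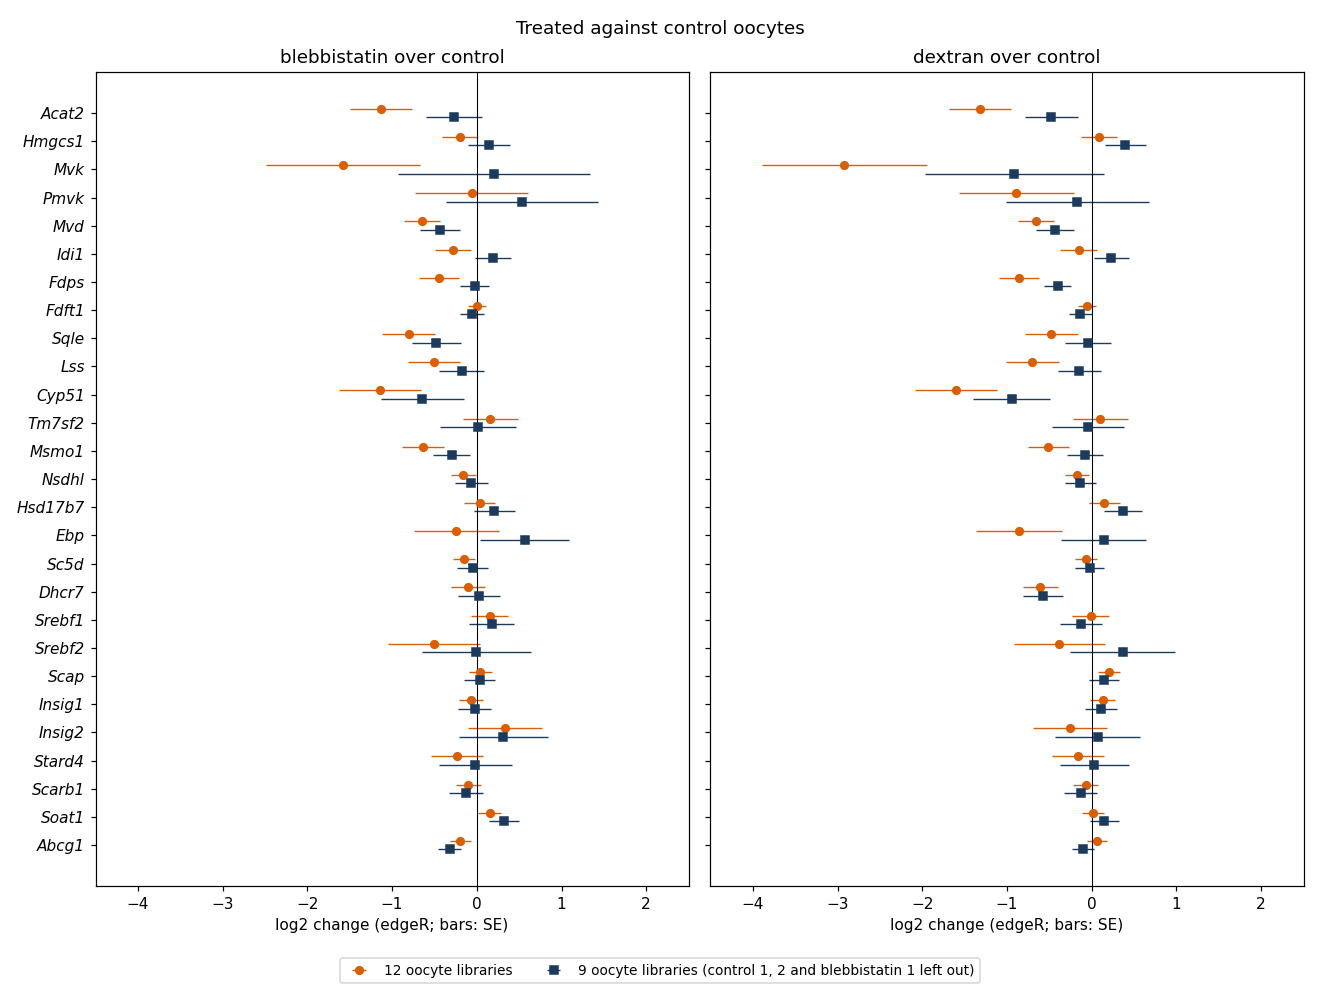
Log2 change with its standard error (edgeR) of 27 genes in treated over control oocytes, for blebbistatin (left) and dextran (right), with all 12 oocyte libraries (circles) and without the 3 libraries with the most granulosa transcripts (squares). Acat2, Mvk and Cyp51 lie nearer to 0 without those libraries, and Dhcr7 with dextran keeps its place.

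The difference between the cell types in their response was tested as an interaction. For blebbistatin 0 of 28 genes were called (0.0485% of 20601 genes tested) and 3 had an unadjusted p under 0.05 (11.3% of all tested). For dextran 0 were called (0%) and 3 had an unadjusted p under 0.05 (9.28%). DESeq2 called 0 of the 28 for blebbistatin (1.90% of all tested) and for dextran (1.59%), and limma voom 0 for blebbistatin (0.0874%) and for dextran (0%). The genes were Tm7sf2 (1.16), Soat1 (0.53) and Abcg1 (-3.54) for blebbistatin, and Mvk (-2.75), Cyp51 (-1.49) and Scap (0.50) for dextran, where a positive value means a higher log2 change in oocytes. The value of Abcg1 turned to 0.82 without blebbistatin granulosa library 2, in which Abcg1 stood at 25.7 CPM. Without control oocyte library 2 the dextran values were -1.30 for Mvk and -0.53 for Cyp51, and without control oocyte libraries 1 and 2 and blebbistatin oocyte library 1 together they were -0.56 and -0.67 in the same order. With 1 library left out at a time, Soat1 for blebbistatin ran from 0.40 without control granulosa library 4 to 0.87 without control granulosa library 1, and Scap for dextran from 0.45 without dextran oocyte library 2 to 0.78 without dextran granulosa library 4.

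A further 43 genes of cholesterol and SREBP biology gave the wider setting. In control medium 22 of them were lower in oocytes and 10 higher, against 32.9% and 44.4% of all genes tested. In all 3 conditions 21 were lower and 9 higher, against 29.4% and 40.3%. Their median log2 change in control medium was -1.12. Fatty acid synthesis, the other branch under SREBP control, was lower in control medium: all 7 genes passed, among them Acly (citrate lyase, -2.78), Fasn (fatty acid synthase, -2.35) and Scd2 (a desaturase, -4.04). Among the genes that process SREBP, the protease gene Mbtps1 was lower (-3.22 ± 0.38, adjusted p = 1.69e-07, edgeR), while Mbtps2 did not pass (0.56, adjusted p = 0.118). The Scd1 call (adjusted p = 0.0416, edgeR) was lost under DESeq2 (adjusted p = 0.0625), with no filter on low counts (0.0923), and without control granulosa library 2 or control oocyte library 1, 3 or 4 (adjusted p = 0.0594 to 0.0983).

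Lbr, the reductase that can take the step of Tm7sf2, was higher in oocytes, at 531, 582, 442 and 408 CPM in control oocytes and 62.9, 92.8, 91.0 and 90.4 CPM in control granulosa cells (2.54 ± 0.17, adjusted p = 4.72e-11, edgeR). Dhdds and Nus1, which draw farnesyl diphosphate into dolichol, were higher as well (1.00 and 1.46), and Ggps1, which extends it, was lower (-1.53). Of the genes for lipoprotein uptake and lysosomal release, 6 of 7 were lower, against 32.9% of all genes tested. They included Vldlr (-4.52), Lrp8 (-2.41), Lrp1 (-2.54) and the lysosomal lipase Lipa (-5.97). In control oocytes Lipa had 0, 1.89, 0 and 0 CPM, so its fitted value rests on control oocyte library 2. The sterol carriers divided: Gramd1a (-5.65) and Gramd1b (-4.76) were lower, and Gramd1c (3.75) and Stard5 (2.43) higher. Gramd1a had 0, 1.62, 0 and 0 CPM in control oocytes, and its fitted value likewise rests on library 2, while without that library Gramd1b stood at -6.47 and Vldlr at -5.51. Nceh1, which splits cholesterol esters, was higher (1.65). Of the genes that turn cholesterol into steroids, Hsd3b1 (-6.65), Fdxr (-2.77) and Fdx1 (-0.50) were lower and Star, Cyp11a1 and Cyp19a1 did not pass. In control granulosa cells Star had 2.93, 1.75, 2.14 and 7.31 CPM and Cyp11a1 0.339, 0.529, 1.60 and 1.62 CPM. Cyp19a1 had 15.4, 0.448, 15.9 and 0 CPM there and 33.0, 35.0, 28.7 and 18.4 CPM in control oocytes. With blebbistatin and with dextran Cyp19a1 was called higher in oocytes, and with dextran Star was called lower. The Hsd3b1 call was lost under limma voom (adjusted p = 0.19), and its value was -8.57 without control oocyte library 2. No gene of this list was called for either treatment in either cell type, nor for the difference between cell types, by edgeR.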

How the data were processed

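The deposited values are salmon's estimated counts, as the labels name them, 1 table per cell type, and GRCm39 was the genome build per the submitters' processing notes. The sources used here do not give the aligner, annotation release, versions or strand setting. The estimated counts were rounded. Genes passing filterByExpr were tested with edgeR 4.0.16 (TMM factors, robust glmQLFit, glmQLFTest) in R 4.3.3 and adjusted by Benjamini-Hochberg, with a threshold of 0.05. Treatments were fitted within the 12 libraries of a cell type (15370 granulosa and 16749 oocyte genes), and cell types over all 24 (20601 genes), whose factors ran from 0.804 to 0.965 in oocytes and from 1.07 to 1.13 in granulosa cells. CPM in the text use the factors of all 24 libraries. SE were derived from the F statistic. DESeq2 1.42.0, limma voom 3.58.1, other factors, no filter, a replicate block and left-out libraries were alternatives.

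The members, the lists and the tests were chosen with earlier results of these data known. Values in every library are given for genes called in any comparison and for Hmgcs1, Fdps, Sqle, Cyp51, Insig1, Srebf2, Scarb1, Abca1 and Stard4; other members are given by range. The other 43 genes are given by counts, with those that passed as examples. 1 of them is not reported here by name. Fits were tested on simulated data. Replicates of a group differed by at least 12.4 in chi-square per gene, so none was counted as a duplicate. Promoter coordinates are of GRCm38.p6 and were not joined to the tables. Because PCR duplicates cannot be told from molecules, depth and the floor of 3 counts cover counting error only.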

Additional observations from a re-analysis of the deposited data

Results flagged for a closer look

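In 14 of the 168 groups of 4 libraries (28 genes in 6 groups), 1 library lay far from the other 3 by Dixon's criterion. Chance gives about 1 in 20 groups, or 8.4 of the 168. Abca1 in blebbistatin and in dextran oocytes was at 0 in all 4 libraries, so those groups are counted but could not be flagged. Control oocyte library 2, whose granulosa marker median was 16.8%, gave 5 of them, all high: Sqle at 102 CPM, Cyp51 at 56.7 CPM, Msmo1 at 148 CPM, Ebp at 16.6 CPM and Abca1 at 0.541 CPM. The part of the granulosa transcripts in these levels was not tested. For Abca1 the other 3 control oocyte libraries were at 0, so any count in library 2 would have met the criterion. Blebbistatin granulosa library 1, which had the fewest genes with counts, gave 3, with Cyp51 at 146 CPM and Dhcr7 at 7.55 CPM below the other 3 libraries and Insig2 at 90.1 CPM above them. Abcg1 was far above the rest of its group in blebbistatin granulosa library 2, at 25.7 CPM, and in dextran granulosa library 4, at 13.6 CPM. The remaining 4 were low values: Idi1 at 40.8 CPM in dextran oocyte library 2, Fdft1 at 737 CPM in dextran oocyte library 3, Sc5d at 152 CPM in control granulosa library 1 and Insig1 at 304 CPM in control oocyte library 4. No gene differed between cell types in its treatment response by the interaction test.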

How the results depend on the processing

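The counts of genes called between cell types stayed within 1.5 times under every alternative run: 17 to 21 lower and 4 to 6 higher over the 3 conditions, with the library scaling added after the data were seen (library totals alone) included. In the treatment comparisons and the interactions 0 genes were called under every alternative but DESeq2, which called 1, Soat1, lower for blebbistatin against dextran in granulosa cells. Replicate numbers did not pair the libraries (same-numbered libraries did not deviate together), and with a replicate block 0 genes were called for either treatment. Hmgcs1 in oocytes against granulosa cells reversed in control medium with upper-quartile factors (-0.144), with library totals alone (-0.181) and without control oocyte libraries 1 and 2 and blebbistatin oocyte library 1 (-0.258). With blebbistatin it reversed under DESeq2 (0.149), limma voom (0.027), RLE factors (0.149), the replicate block (0.017) and without those 3 libraries (0.013). Hsd17b7 reversed under DESeq2 and RLE factors with blebbistatin (0.037) and with dextran (0.063). The Abcg1 difference between cell types in the blebbistatin response reversed under limma voom (0.205) and without blebbistatin granulosa libraries 1 and 2 (0.437). With single libraries left out, Hmgcs1 ranged from -0.122 to 0.352 in control medium and from -0.293 to 0.147 with blebbistatin. Hsd17b7 ranged from -0.415 to 0.006 in control medium, from -0.451 to 0.028 with blebbistatin and from -0.301 to 0.034 with dextran, and the Abcg1 difference from -4.542 to 0.818. None of these reversed values was called in the comparison as reported, and the cause was not tested. Of 4450 values of single genes under an alternative, 4290 kept their direction and their side of the threshold, 90 lost a call, 28 gained one and 42 reversed.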
